A study of Mus musculus with 6 samples.

Results

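The genes described here encode the enzymes that add methyl groups to the lysines of histones and those that take them off. They were chosen by symbol: all protein-coding genes of the mouse GENCODE M21 annotation whose symbol starts with Kdm, Kmt, Setd, Ehmt, Suv39h or Nsd. The rule matched 44 of the 55401 gene identifiers in the count table. One of the matches, Nsdhl, encodes an enzyme of cholesterol synthesis that shares only the letters of the prefix, so it was set apart and 43 genes are described as the family. By their textbook substrates 19 are histone lysine methyltransferases and 17 are demethylases. The other 7 (Kmt2e, Setd3, Setd4, Setd5, Setd6, Setd7 and Kdm8) act on other proteins or have a disputed substrate. The libraries hold poly(A) RNA of mouse ES cells, that is embryonic stem cells, which can form all tissues of the embryo. In one arm are 3 libraries labelled KO, from dishes that received doxycycline. They are set against 3 libraries labelled as expressing 3XHA-Taf13, a tagged form of the TFIID subunit TAF13, from dishes with no treatment. Culture lasted 7 days in both arms, and every library is from a separate dish. Since dishes of one arm may share a starting culture, p-values measure the spread between dishes, which may be technical. Every library labelled KO had doxycycline and no other library did, so the drug and the label cannot be told apart. The sources used here do not give the strain, the origin of the line, the promoter of the tagged gene or how the KO was made. The question the series asks is how messenger RNA responds to the loss of TAF13, which sits in the complex that recruits RNA polymerase II to promoters.

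Methylated lysines mark the state of the chromatin around them. Trimethylation of lysine 4 of histone H3 (H3K4) marks active promoters and monomethylation of the same lysine marks enhancers. Methylated H3K9 marks silenced chromatin, including the endogenous retroviruses that ES cells keep silent, methylated H3K27 marks genes held by Polycomb, methylated H3K36 lies over transcribed genes, and H4K20 methylation is tied to the cell cycle and to heterochromatin. The methyltransferases take the methyl group from S-adenosylmethionine through a SET domain. Most demethylases use a JmjC domain that needs iron and 2-oxoglutarate, while the LSD enzymes use a flavin. In ES cells, the balance of these enzymes is known for keeping lineage genes poised and retroviruses silent.

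Total counts ran from 33953189 to 50328010 in the libraries labelled KO and from 31219328 to 45957003 in the expressing libraries. Taf13 was counted 422, 634 and 699 times in the libraries labelled KO and 244, 445 and 447 times in the expressing libraries, so the libraries labelled KO did not have less of it. The counts do not tell the tagged copy from the chromosomal gene, so Taf13 does not check the labels, and each direction below rests on the labels alone. Pou5f1, a defining marker of ES cells, was abundant in both groups, at 498 ± 10.0 CPM (counts scaled to the size of the library by TMM) in the libraries labelled KO and 828 ± 124 CPM in the expressing libraries (mean ± SD, n = 3 each). Of 12 pluripotency markers 10 were called lower and 1 higher, while all 15 markers of primitive endoderm, the extraembryonic neighbour of the epiblast, were called higher. The 15 include Hnf4a, with 35, 41 and 43 counts in the libraries labelled KO and 4, 8 and 13 in the expressing libraries. Hnf4a passed the filter on low counts only through the libraries labelled KO, where it is high. The pluripotency markers that fell the most were Zfp42 and Nanog, and Dnmt3l was called higher. Zfp42 was at 113 ± 4.55 CPM in the libraries labelled KO and 292 ± 9.63 CPM in the expressing libraries. Nanog was at 119 ± 6.75 CPM in the libraries labelled KO and 281 ± 21.8 CPM in the expressing libraries. Summed levels of the primitive endoderm markers ran from 1579 to 1624 CPM in the libraries labelled KO and from 623 to 733 CPM in the expressing libraries, and none was at 0 in any library. Of 14 fibroblast markers, listed since ES cells are often grown on fibroblasts, 4 were called higher and 1 lower, with sums from 973 to 1389 CPM in the libraries labelled KO and from 1182 to 1379 CPM in the expressing ones. KO replicate 2 stood apart in these markers, at 1389 CPM against 973 and 977 CPM in KO replicates 1 and 3, and without it 3 were called higher and 5 lower. Of 9 tested trophectoderm markers 3 were higher and 5 lower, with sums from 206 to 218 CPM in the libraries labelled KO and from 202 to 252 CPM in the expressing ones, and Elf5 was at 0 in a library. Of 10 tested markers of the 2-cell-like state 8 were higher and 0 lower (DESeq2 also gave 0, as did an unadjusted p under 0.05), with sums from 68.1 to 75.8 CPM in the libraries labelled KO and from 27.7 to 33.4 CPM in the expressing ones, and Tcstv1 was at 0 in a library. The part of these marker changes in the results below was not tested, and in bulk RNA fewer cells of a type and less RNA per cell cannot be told apart. Expressing replicate 1 stood apart from expressing replicates 2 and 3 (chi-square per degree of freedom 37.9 and 30.8, against at most 6.20 for the other pairs within a group), and its deviations followed the GC content of the genes (r = 0.55 over the tested genes, which are no independent points).

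The family was lower more often than higher in the libraries labelled KO. Of the 43 genes, all of which passed the filter on low counts, 18 fell and 5 rose at a Benjamini-Hochberg adjusted p under 0.05 (edgeR's quasi-likelihood test), that is 41.9% and 11.6%. The rises include Kdm4d, which passed the filter only through the libraries labelled KO, where it is high. With a filter of at least 1 CPM in 3 libraries 18 fell and 4 rose, and of all 14226 genes passing that filter 3334 fell and 3060 rose. Among all 17778 tested genes 20.8% were lower and 19.2% higher, 40.0% in either direction, and among the 9203 tested protein-coding genes of at least 10 CPM the shares were 26.7% and 17.8%. The changes were modest. The log2 fold changes (libraries labelled KO minus expressing libraries) of the genes that fell ran from -0.66 to -0.21, and for 42 of the 43 genes the 95% interval stayed inside a 2-fold change either way. The median log2 fold change was -0.16 for the family and -0.01 for all tested genes. The 3 libraries of one group lay wholly above or below those of the other for 30 of the 43 genes, 23 of them lower and 7 higher in the libraries labelled KO, which is 69.8% against 53.5% of all tested genes. Without expressing replicate 1, 23 fell and 6 rose, and with libraries scaled by their totals 13 fell and 6 rose. Over all tested genes the calls moved as well. Without expressing replicate 1, 4589 of 18542 fell and 4851 rose, and with library totals 2570 of 17778 fell and 4466 rose. Exons of 17 of the genes overlap a gene on the opposite strand, Kmt2c, Nsd2, Kdm3b, Kmt2e and Setd7 among them; the kit keeps strand but the strand setting of the counting is not stated, so reads of such pairs may be shared. That last scaling took the share of higher genes among all calls to 63.5%, against 48.1% with the TMM scaling used here.

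**Figure D1:**
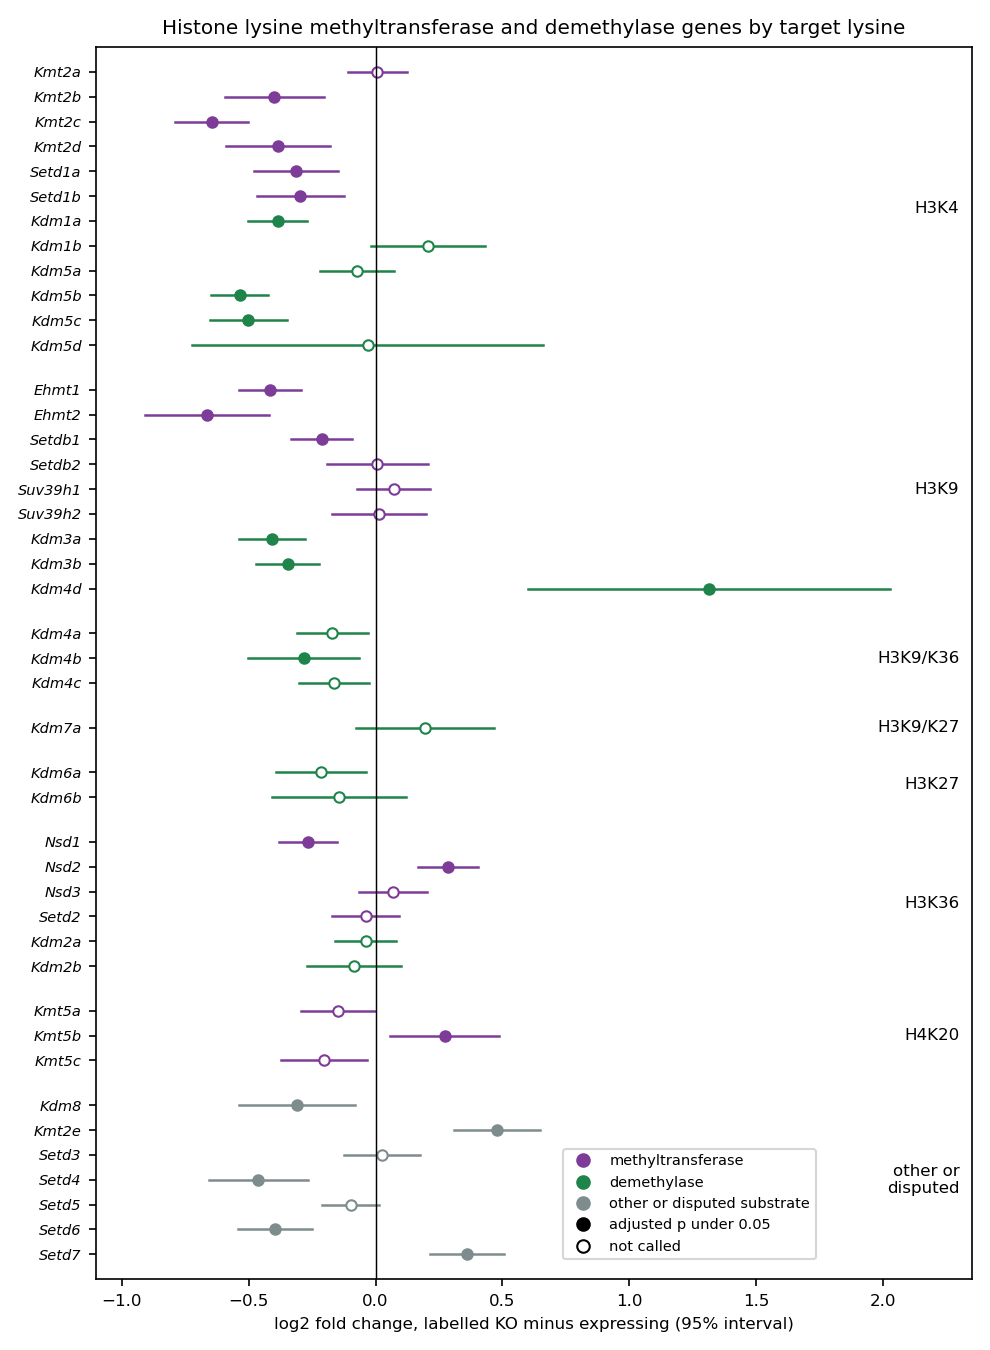
Log2 fold change of the 43 genes (horizontal axis, libraries labelled KO minus expressing libraries) with the 95% interval, grouped by target lysine. Filled points passed an adjusted p of 0.05, and the H3K4 group at the top holds 8 filled points, all left of 0.

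The promoters of the family were read from RefSeq (build GRCm38.p6), as TFIID binds there, in windows of 250 bases before an annotated start. Of the 43 genes 32 had at least 1 window, 44 windows in all. They were GC-rich, with a median of 62.8% against 52.4% over all 32851 windows, and CpG-rich, with a median observed over expected ratio of 0.84 against 0.37. The letters TATAAA or, on the other strand, TTTATA stood in 1 of the 44 windows (2.27%, against 12.4% of all windows). The GC box, GGGCGG or CCGCCC, stood in 29 (65.9%, against 32.7%), CCAAT or ATTGG in 18 (40.9%, against 33.8%), the ETS core CCGGAA or TTCCGG in 11 (25.0%, against 12.0%) and the E-box CACGTG in 4 (9.09%, against 6.02%). The 32851 windows were not limited to genes tested here, so these differences need not be particular to the family. The windows of 3 called genes with a single window are printed here up to the first base that either annotation transcribes, to show the range of composition: Kmt2c and Kdm5b had the lowest fold changes among such genes and Setd7 the only positive one. Capitals mark the motifs named above, and matches that overlap run together.
Kmt2c, chr5:25498784-25499033, minus strand: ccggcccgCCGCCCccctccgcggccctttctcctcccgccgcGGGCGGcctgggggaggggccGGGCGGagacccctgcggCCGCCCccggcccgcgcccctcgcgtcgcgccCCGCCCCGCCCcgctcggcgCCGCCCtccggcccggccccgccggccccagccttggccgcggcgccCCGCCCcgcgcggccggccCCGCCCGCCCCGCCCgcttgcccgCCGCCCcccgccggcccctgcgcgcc
Kdm5b, chr1:134559928-134560170, plus strand: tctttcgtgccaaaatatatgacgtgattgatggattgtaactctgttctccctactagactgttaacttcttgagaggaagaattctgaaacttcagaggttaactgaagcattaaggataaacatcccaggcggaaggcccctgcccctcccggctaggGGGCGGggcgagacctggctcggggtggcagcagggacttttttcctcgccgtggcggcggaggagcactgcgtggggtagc
Setd7, chr3:51560880-51561073, minus strand: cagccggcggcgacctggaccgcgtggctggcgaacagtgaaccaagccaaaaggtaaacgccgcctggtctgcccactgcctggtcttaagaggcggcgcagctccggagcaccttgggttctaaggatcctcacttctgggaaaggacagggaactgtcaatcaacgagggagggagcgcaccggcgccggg
The printed stretch of Kmt2c held 12 GC boxes, that of Kdm5b 1 GC box and that of Setd7 none of the motifs. Over the whole windows of 250 bases the GC content was 91.6% for Kmt2c, 54.4% for Kdm5b and 60.4% for Setd7.

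Levels of different genes can be compared only per length, so CPM values were divided by the length of each gene's merged exons in kilobases (RPKM). Kdm1a, which encodes LSD1, had the highest level, at 59.6 ± 1.51 RPKM in the libraries labelled KO and 77.9 ± 1.76 RPKM in the expressing libraries (SD, n = 3 each). In the expressing libraries Kdm4c (46.8 ± 2.84 RPKM) and Kdm5b (45.5 ± 0.694 RPKM) came next, and their ranges over the 3 libraries overlapped. In the libraries labelled KO, Kdm4c stood at 41.8 ± 1.05 RPKM, and Nsd1 (32.0 ± 0.841), Kdm5b (31.4 ± 0.813) and Setdb1 (31.1 ± 1.06 RPKM) followed with overlapping ranges. A level above 20 RPKM was reached by 11 genes in the libraries labelled KO and by 12 in the expressing libraries. Setdb1, Kmt5a and Setd2 were among them, while the giant enhancer enzymes Kmt2c and Kmt2d stayed at 5.05 ± 0.195 and 5.82 ± 0.137 RPKM in the libraries labelled KO and at 7.91 ± 0.444 and 7.60 ± 1.05 RPKM in the expressing libraries. Kdm4d and Kdm5d were close to absent, with at most 33 and 30 counts in a library. The merged exons include every annotated isoform, so the level of a gene with long unused exons is understated.

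**Figure D2:**
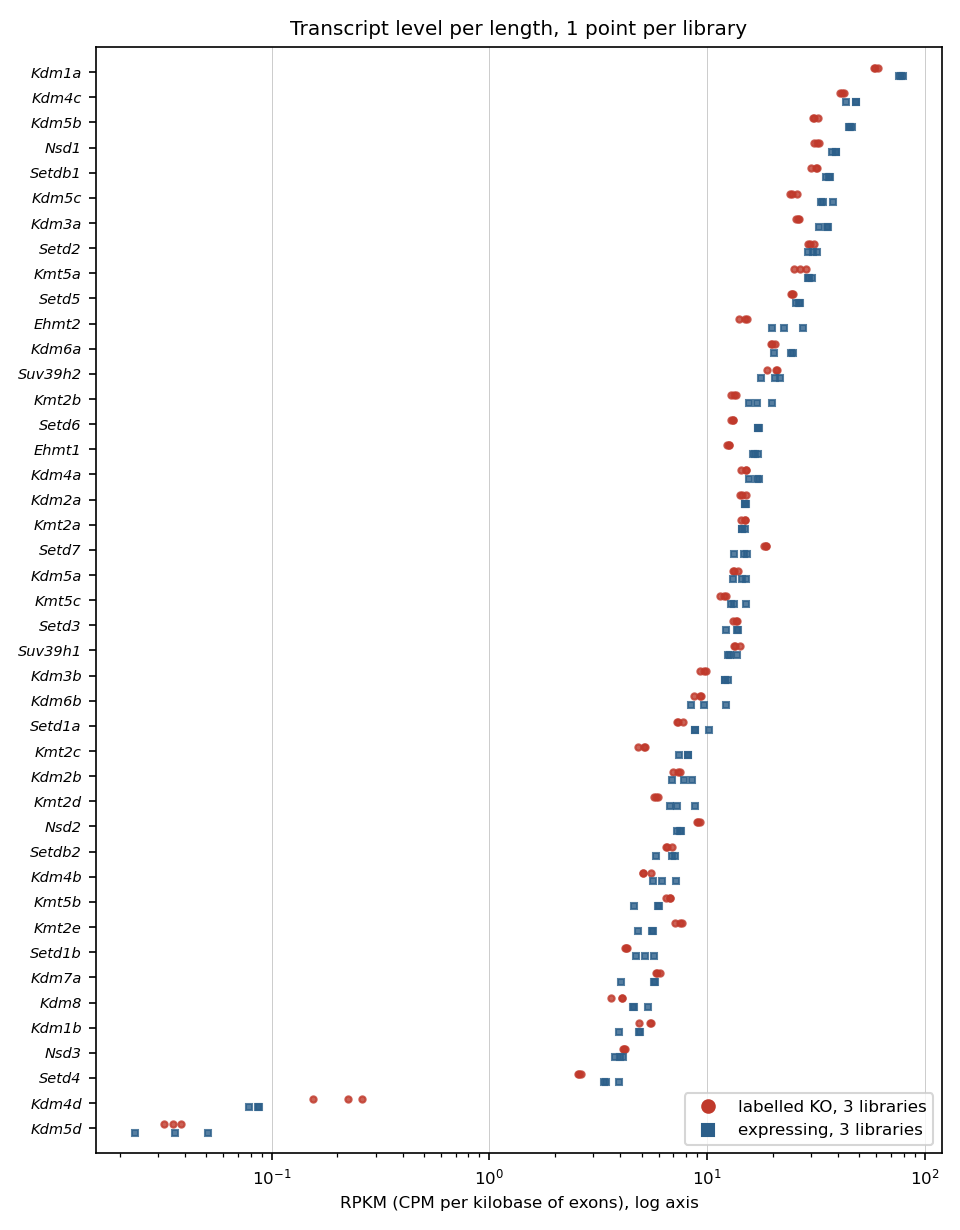
RPKM of each gene on a log axis, 1 point per library, libraries labelled KO above expressing libraries in each row, genes sorted by the expressing mean. Kdm1a leads in both groups, and Kdm4d and Kdm5d lie under 1 RPKM.

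The H3K4 methyltransferases fell, with a single exception. Of the 6 genes, 5 fell and 0 rose in edgeR (DESeq2 also gave 0, as did an unadjusted p under 0.05), and Kmt2a did not pass. For this group and those below, the shares over all tested genes were 20.8% lower and 19.2% higher. Among tested protein-coding genes of at least 10 CPM they were 26.7% and 17.8%. Kmt2c encodes MLL3, which with MLL4 monomethylates H3K4 at enhancers. It stood at 98.0, 104 and 105 CPM in the libraries labelled KO and at 150.1, 166 and 165 CPM in the expressing libraries, with no overlap between the groups. Kmt2c fell by 36.1% (log2 fold change -0.65, SE 0.0636, adjusted p = 6.77e-05). Kmt2d, the gene of MLL4 and the main enzyme for H3K4 monomethylation at enhancers, stood at 119, 116 and 113 CPM in the libraries labelled KO and at 175, 134 and 146 CPM in the expressing libraries. For Kmt2d this was a log2 fold change of -0.38 (SE 0.0911, adjusted p = 0.00860), so that the level fell by 23.4%. The groups did not overlap, and expressing replicate 1 was the highest library. Kmt2b encodes MLL2, which sets H3K4 trimethylation at bivalent promoters in ES cells. It stood at 131, 127 and 124 CPM in the libraries labelled KO and at 191, 149.9 and 162 CPM in the expressing libraries, again without overlap and with expressing replicate 1 highest. Kmt2b had a log2 fold change of -0.40 (SE 0.0864, adjusted p = 0.00549), and the level decreased by 24.1%. Kmt2a, the gene of MLL1, which keeps Hox and other developmental genes active, was at 238, 250.4 and 248 CPM in the libraries labelled KO and 249, 242 and 241 CPM in the expressing libraries. Kmt2a did not pass (log2 fold change 0.01, 95% interval -0.11 to 0.13, adjusted p = 0.924). Setd1a and Setd1b encode the catalytic subunits of the SET1 complexes, which trimethylate H3K4 at active promoters. Setd1a was at 52.5, 49.8 and 49.6 CPM in the libraries labelled KO and 69.0, 59.7 and 60.1 CPM in the expressing libraries (log2 fold change -0.31), and Setd1b at 51.0, 52.0 and 50.6 CPM in the libraries labelled KO and 69.0, 57.2 and 62.6 CPM in the expressing libraries (-0.30), both without overlap. The Setd1a call was lost with library totals (adjusted p = 0.0596), and the Setd1b call with library totals (0.0834) or without KO replicate 1 (0.0511), KO replicate 3 (0.0576) or expressing replicate 3 (0.0524). Without expressing replicate 1, Kmt2b stood at -0.27, Kmt2d at -0.24 and Kmt2c at -0.66 (log2 fold change), and all 5 calls held.

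Genes of the subunits that work with these enzymes were read from a list of 13, of which 12 were tested. In the libraries labelled KO 7 fell (58.3%, against 20.8% of all tested genes) and 0 rose (DESeq2 also gave 0, as did an unadjusted p under 0.05), and the median log2 fold change was -0.21. Wdr82, a subunit of the SET1 complexes, was at 199.7 ± 2.45 CPM in the libraries labelled KO and 279 ± 8.16 CPM in the expressing libraries (SD, n = 3 each), a log2 fold change of -0.48. Hcfc1 (-0.43), a host cell factor that binds SET1 and MLL complexes, and the core subunits Wdr5 (-0.24), Dpy30 (-0.25) and Rbbp5 (-0.18) fell as well, while the core subunit Ash2l did not pass (-0.07). Cxxc1 (-0.29), which brings SET1 to CpG islands, and Psip1 (-0.34), which tethers MLL1, were the other decreases, and Men1 did not pass (-0.15). The count fell to 3 with library totals and without KO replicate 1, KO replicate 2 or expressing replicate 3.

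Among the 6 H3K4 demethylases, 3 fell and 0 rose (DESeq2 also gave 0, as did an unadjusted p under 0.05), with 2 of the 4 KDM5 genes among them. Kdm5b, the gene of JARID1B, which removes tri- and dimethyl marks from H3K4, had the highest level per length of the KDM5 genes. It stood at 509.6, 515 and 535 CPM in the libraries labelled KO and at 742, 752 and 765 CPM in the expressing libraries. Kdm5b fell (log2 fold change -0.53, SE 0.0499, adjusted p = 5.12e-05). Kdm5c, its X-linked relative, was at 184, 174 and 170.3 CPM in the libraries labelled KO and 269.9, 236 and 242 CPM in the expressing libraries. For Kdm5c this was a log2 fold change of -0.50 (SE 0.0670, adjusted p = 0.000386), so that the level fell by 29.3%. Both genes were lower in each library labelled KO than in any expressing library. Kdm5a, the gene of JARID1A, was at 197, 187 and 189 CPM in the libraries labelled KO and 185, 213 and 204 CPM in the expressing libraries, and the groups overlapped. Kdm5a did not pass (log2 fold change -0.07, 95% interval -0.22 to 0.07, adjusted p = 0.392). Kdm5a passed without expressing replicate 1 (log2 fold change -0.10, adjusted p = 0.0256) and with the GC trend removed (-0.16, adjusted p = 0.00294). Per length, Kdm5a stood at 0.452, 0.425 and 0.412 times Kdm5b in the libraries labelled KO and at 0.292, 0.332 and 0.312 times in the expressing libraries. Kdm1a, whose product LSD1 sits in the CoREST complex, was at 318, 303 and 306 CPM in the libraries labelled KO and 413, 402 and 395 CPM in the expressing libraries. Kdm1a had a log2 fold change of -0.38 (SE 0.0517, adjusted p = 0.000394), and the level decreased by 23.4%. Its paralogue Kdm1b, the gene of LSD2, which in oocytes is needed for maternal imprints, was at 30.1, 26.7 and 30.4 CPM in the libraries labelled KO and 21.7, 26.9 and 26.8 CPM in the expressing libraries, and the groups overlapped. Kdm1b did not pass (log2 fold change 0.21, 95% interval -0.02 to 0.43, adjusted p = 0.130). With library totals Kdm1b passed (log2 fold change 0.30, adjusted p = 0.0288).

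Kdm5d, the Y-linked relative of Kdm5c, was close to absent, with 17, 24 and 30 counts in the libraries labelled KO and 24, 24 and 13 in the expressing libraries. Its level was between 0.0235 and 0.0507 RPKM over the 6 libraries. The other Y-linked genes looked at differed widely in level. Eif2s3y, which starts at 1010543 on chromosome Y (mm10) and so lies beyond Kdm5d (897788 to 956786), had 3833 to 8402 counts per library. Uty, the Y-linked relative of the H3K27 demethylase Kdm6a, had 1783 to 4754 counts. Uba1y (818649 to 844224), on the other side of Kdm5d, had 194 to 293 counts and at most 1.75 RPKM. Zfy1, with 31, 53 and 57 counts in the libraries labelled KO and 26, 58 and 49 in the expressing libraries, was also low. Zfy2 had 0, 1 and 7 counts in the libraries labelled KO and 4, 12 and 2 in the expressing libraries.

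Among 12 genes for partners of LSD1 and its paralogue, 6 fell (50%, against 20.8% of all tested genes) and 2 rose (16.7%, against 19.2%), with a median log2 fold change of -0.15. Zmym3 (-0.71) and Gse1 (-0.50) fell the most, Rcor2, the CoREST paralogue, was at 107 ± 1.80 CPM in the libraries labelled KO and 147 ± 21.5 CPM in the expressing libraries (-0.46), and Rcor3 (0.29) rose. Rcor1 did not pass (0.10). The count of lower genes was 4 with library totals, and 4 without any one library other than expressing replicate 1. The count of higher genes was 1 without any one of those same libraries, with no filter on low counts, with the replicate block and with the GC trend removed.

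**Figure D3:**
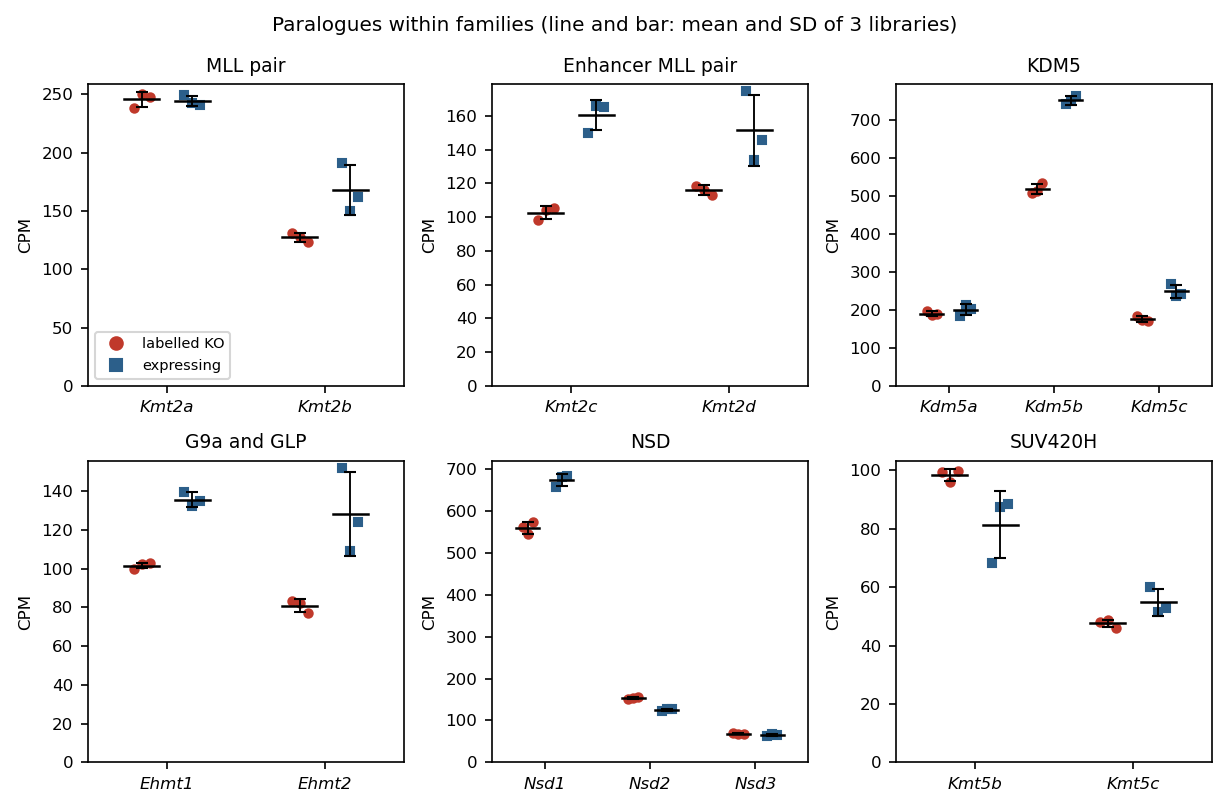
CPM of paralogues (vertical axis from 0; points are libraries, line and bar are mean and SD, n = 3; red circles labelled KO, blue squares expressing). Kmt2c, Kdm5b and Kdm5c lie apart between groups while Kmt2a and Kdm5a overlap, and Nsd1 and Nsd2 differ in direction.

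Of the H3K9 methyltransferases, the G9a pair and Setdb1 fell. Of 6 genes 3 fell and 0 rose (DESeq2 also gave 0, as did an unadjusted p under 0.05). Ehmt2 and Ehmt1 encode G9a and GLP, which pair to mono- and dimethylate H3K9 in euchromatin. Ehmt2 (chromosome 17, 34898469 to 34914052, mm10) stood at 83.5, 82.3 and 76.8 CPM in the libraries labelled KO and at 152, 109 and 124 CPM in the expressing libraries, the lowest log2 fold change of the family. Ehmt2 fell by 36.9% (log2 fold change -0.66, SE 0.108, adjusted p = 0.00121). Expressing replicate 1 was the highest of these libraries, and without it the log2 fold change was -0.50 (adjusted p = 4.77e-09). Ehmt1 stood at 99.8, 102 and 103 CPM in the libraries labelled KO and at 139.6, 132 and 135 CPM in the expressing libraries. For Ehmt1 this was a log2 fold change of -0.42 (SE 0.0543, adjusted p = 0.000334), so that the level fell by 25.1%. Neither gene's groups overlapped. Setdb1, the H3K9 trimethylating enzyme that TRIM28 brings to endogenous retroviruses in ES cells, was at 205, 217 and 218 CPM in the libraries labelled KO and 249.5, 251 and 241 CPM in the expressing libraries. Setdb1 had a log2 fold change of -0.21 (SE 0.0541, adjusted p = 0.0120), and the level decreased by 13.7%. The Setdb1 call was lost with library totals (adjusted p = 0.118) and without KO replicate 1 (0.0723). Suv39h1 and Suv39h2, which trimethylate H3K9 of pericentric heterochromatin, did not pass: Suv39h1 was at 71.9 ± 2.54 CPM in the libraries labelled KO and 68.4 ± 3.40 CPM in the expressing libraries (log2 fold change 0.07, 95% interval -0.07 to 0.21), and Suv39h2 at 88.8 ± 5.00 CPM in the libraries labelled KO and 87.9 ± 8.77 CPM in the expressing libraries (0.01, -0.17 to 0.20; SD, n = 3). Suv39h1 passed without expressing replicate 1 (log2 fold change 0.14, adjusted p = 0.0159). Setdb2, a paralogue of Setdb1, was at 26.3, 28.0 and 26.6 CPM in the libraries labelled KO and 23.6, 28.9 and 27.9 CPM in the expressing libraries, with overlap, and did not pass either (0.01, 95% interval -0.19 to 0.21).

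Of 13 tested genes of the H3K9 silencing machinery around these enzymes 6 fell (46.2%, against 20.8% of all tested genes) and 0 rose (DESeq2 also gave 0, as did an unadjusted p under 0.05). Trim28, the corepressor that KRAB zinc finger proteins bind and that recruits SETDB1, was at 901 ± 16.4 CPM in the libraries labelled KO and 1861 ± 189 CPM in the expressing libraries (SD, n = 3 each; log2 fold change -1.05, adjusted p = 9.81e-06). Atf7ip (-0.33), the partner that stabilises SETDB1, its paralogue Atf7ip2 (-0.59), Uhrf1 (-0.44) and the heterochromatin protein gene Cbx1 (-0.41) also fell, while Cbx5 (0.08) and the G9a partner Wiz (-0.16) did not pass. The count ranged from 4 (without KO replicate 2 or expressing replicate 3) to 9 (without expressing replicate 1) when a library was left out, and was 10 with the GC trend removed.

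Of the 7 demethylases that act on H3K9, 3 fell and 1 rose. Kdm3a and Kdm3b encode the mono- and dimethyl H3K9 demethylases JMJD1A and JMJD1B. Kdm3a stood at 212, 215 and 219 CPM in the libraries labelled KO and at 268, 295 and 293 CPM in the expressing libraries. Kdm3a fell by 24.6% (log2 fold change -0.41, SE 0.0578, adjusted p = 0.000544). Kdm3b stood at 131, 139.9 and 136 CPM in the libraries labelled KO and at 176, 171 and 171 CPM in the expressing libraries. For Kdm3b this was a log2 fold change of -0.35 (SE 0.0548, adjusted p = 0.00101), so that the level fell by 21.3%. Neither gene's groups overlapped, and per length Kdm3a stayed at 2.64 to 2.77 times Kdm3b in the libraries labelled KO and 2.61 to 2.96 times in the expressing libraries. Kdm4a, Kdm4b and Kdm4c encode JMJD2 enzymes that remove trimethyl marks from both H3K9 and H3K36. Kdm4b was at 27.1, 24.8 and 24.9 CPM in the libraries labelled KO and 35.4, 27.6 and 30.5 CPM in the expressing libraries (log2 fold change -0.28, adjusted p = 0.0428), a call lost in 6 of 14 alternatives. Kdm4a was at 83.2, 86.9 and 86.9 CPM in the libraries labelled KO and 100.2, 90.5 and 98.5 CPM in the expressing libraries, and Kdm4c, the most abundant of them per length, at 244, 237 and 249 CPM in the libraries labelled KO and 253, 283 and 281 CPM in the expressing libraries. Kdm4a had a log2 fold change of -0.17 (adjusted p = 0.0538) and Kdm4c of -0.16 (adjusted p = 0.0588), neither of which passed, although for both every library labelled KO was below every expressing library. Without expressing replicate 1 both passed (-0.11 and -0.18), as they did with the GC trend removed (-0.14 and -0.25). Kdm7a, a PHD-finger enzyme for dimethylated H3K9 and H3K27, was at 58.7, 58.9 and 61.1 CPM in the libraries labelled KO and 40.6, 58.1 and 57.2 CPM in the expressing libraries, without overlap and with expressing replicate 1 lowest, and did not pass (log2 fold change 0.20). Kdm4d, an H3K9 demethylase without the Tudor domains of its relatives, was the gene that rose, with 26, 20 and 33 counts in the libraries labelled KO and 7, 11 and 9 in the expressing libraries (log2 fold change 1.31, SE 0.317). It entered the test only through the libraries labelled KO, and the neighbouring pseudogene Kdm4dl, a near copy, makes its reads uncertain.

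The H3K27 demethylases did not pass. Kdm6a, the X-linked gene of UTX, was at 172, 165 and 166 CPM in the libraries labelled KO and 171, 204 and 209 CPM in the expressing libraries, where expressing replicate 1 lay among the libraries labelled KO. Kdm6a did not pass (log2 fold change -0.21, 95% interval -0.39 to -0.04, adjusted p = 0.0531). Without expressing replicate 1 Kdm6a passed with a log2 fold change of -0.27 (adjusted p = 2.04e-07), and with the GC trend removed with -0.30 (adjusted p = 8.46e-06). Kdm6b, the gene of the inducible enzyme JMJD3, was at 64.4, 65.5 and 60.9 CPM in the libraries labelled KO and 84.8, 58.6 and 67.3 CPM in the expressing libraries, and the groups overlapped. Kdm6b did not pass (log2 fold change -0.14, 95% interval -0.41 to 0.12, adjusted p = 0.363). The H3K27 methyltransferase genes carry another prefix: Ezh1 fell (-0.60) and Ezh2 did not pass (-0.07).

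Among the H3K36 methyltransferases, the NSD genes went both ways. Nsd1, Nsd2 and Nsd3 encode enzymes that dimethylate H3K36. Nsd1 stood at 562, 543 and 573 CPM in the libraries labelled KO and at 656, 681 and 682 CPM in the expressing libraries. Nsd1 had a log2 fold change of -0.27 (SE 0.0507, adjusted p = 0.00272), and the level decreased by 16.9%. Nsd2 stood at 151, 153 and 156 CPM in the libraries labelled KO and at 122, 128 and 127 CPM in the expressing libraries. Nsd2 rose by 21.9% (log2 fold change 0.29, SE 0.0531, adjusted p = 0.00240). The groups overlapped for neither gene, and both calls held in all 14 alternatives. Per length Nsd2 was at 0.280, 0.293 and 0.283 times Nsd1 in the libraries labelled KO and at 0.194, 0.195 and 0.193 times in the expressing libraries. Nsd3 was at 69.5, 68.4 and 68.0 CPM in the libraries labelled KO and 62.6, 67.9 and 65.7 CPM in the expressing libraries, without overlap, and did not pass (log2 fold change 0.07). Setd2, whose product trimethylates H3K36 as it travels with elongating RNA polymerase II, was at 318, 311 and 332 CPM in the libraries labelled KO and 312, 331 and 345 CPM in the expressing libraries, with overlap. Setd2 did not pass (log2 fold change -0.04, 95% interval -0.17 to 0.09, adjusted p = 0.623). The H3K36 demethylases Kdm2a (log2 fold change -0.04, 95% interval -0.16 to 0.08) and Kdm2b (-0.08, -0.27 to 0.10), CpG island proteins of which the second brings a variant Polycomb complex to them, did not pass. With the GC trend removed Setd2 (-0.13, adjusted p = 0.0139) and Kdm2a (-0.10, adjusted p = 0.0495) were called lower. Of 15 genes for partners of KDM2B, KDM5 and SETD5, 7 fell (46.7%, against 20.8% of all tested genes) and 1 rose (6.67%, against 19.2%). Bcor, a subunit of the KDM2B complex, was at 66.2 ± 1.02 CPM in the libraries labelled KO and 99.7 ± 3.14 CPM in the expressing libraries (-0.59), and Yaf2 (0.32) rose. With library totals, or without KO replicate 2, 4 fell. The rises numbered 0 without any one library labelled KO, and 3 without expressing replicate 1 or with the GC trend removed.

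Of the H4K20 methyltransferases 1 rose and 0 fell in edgeR, with 2 lower at an unadjusted p under 0.05 and 0 lower by DESeq2. Kmt5b, the gene of SUV420H1, which di- and trimethylates H4K20, stood at 99.3, 95.9 and 99.8 CPM in the libraries labelled KO and at 68.2, 87.5 and 88.4 CPM in the expressing libraries, where expressing replicate 1 was lowest. For Kmt5b this was a log2 fold change of 0.27 (SE 0.0952, adjusted p = 0.0462), so that the level rose by 20.8%. The Kmt5b call was lost without KO replicate 1 (adjusted p = 0.124), KO replicate 2 (0.0948) or KO replicate 3 (0.131). Its paralogue Kmt5c, which trimethylates H4K20 in heterochromatin, was at 48.0, 48.7 and 46.1 CPM in the libraries labelled KO and 60.2, 51.3 and 52.9 CPM in the expressing libraries (log2 fold change -0.20, adjusted p = 0.0567). Kmt5a, the gene of SET8, the cell-cycle regulated enzyme for monomethylation, was at 132, 141 and 152 CPM in the libraries labelled KO and 156, 162 and 154 CPM in the expressing libraries (-0.15, adjusted p = 0.0954). Neither passed, and for both the groups did not overlap. Kmt5a was called lower without expressing replicate 1 (adjusted p = 0.0357) and Kmt5c without expressing replicate 2 (adjusted p = 0.0345), and both were with the GC trend removed (adjusted p = 0.00575 for Kmt5a and 0.0230 for Kmt5c).

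Of the 7 genes with another or disputed substrate 3 fell and 2 rose. Kmt2e encodes MLL5, a SET-domain protein with no established methyltransferase activity. It stood at 74.7, 78.8 and 80.0 CPM in the libraries labelled KO and at 50.2, 59.1 and 58.2 CPM in the expressing libraries, with no overlap. Kmt2e had a log2 fold change of 0.48 (SE 0.0759, adjusted p = 0.00102), a rise of 39.3%. Setd7, whose product SET7/9 monomethylates H3K4 in the test tube and mostly other proteins in cells, stood at 203, 202 and 198 CPM in the libraries labelled KO and at 143, 160.2 and 166 CPM in the expressing libraries, again with no overlap. Setd7 rose by 28.3% (log2 fold change 0.36, SE 0.0654, adjusted p = 0.00216). Setd6, which methylates RELA, was at 24.5, 25.0 and 25.2 CPM in the libraries labelled KO and 32.7, 33.0 and 32.5 CPM in the expressing libraries. For Setd6 this was a log2 fold change of -0.39 (SE 0.0646, adjusted p = 0.00121), so that the level fell by 23.9%. Setd4 was at 14.2, 13.8 and 13.9 CPM in the libraries labelled KO and 21.2, 18.1 and 18.4 CPM in the expressing libraries (-0.46), and Kdm8, now regarded as an arginine hydroxylase, at 9.69, 9.72 and 8.66 CPM in the libraries labelled KO and 12.8, 10.9 and 11.1 CPM in the expressing libraries (-0.31, adjusted p = 0.0353, lost in 7 of 14 alternatives). The actin histidine methyltransferase gene Setd3 (0.03, 95% interval -0.12 to 0.17) and Setd5, whose product binds the NCoR corepressor (-0.10, -0.21 to 0.01), did not pass. Setd5 was called lower without expressing replicate 1 (adjusted p = 0.0314) and with the GC trend removed (adjusted p = 0.00853). Nsdhl, the sterol enzyme gene caught by the prefix, was at 26.8, 29.9 and 27.9 CPM in the libraries labelled KO and 35.7, 35.8 and 36.4 CPM in the expressing libraries (-0.35).

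**Figure D4:**
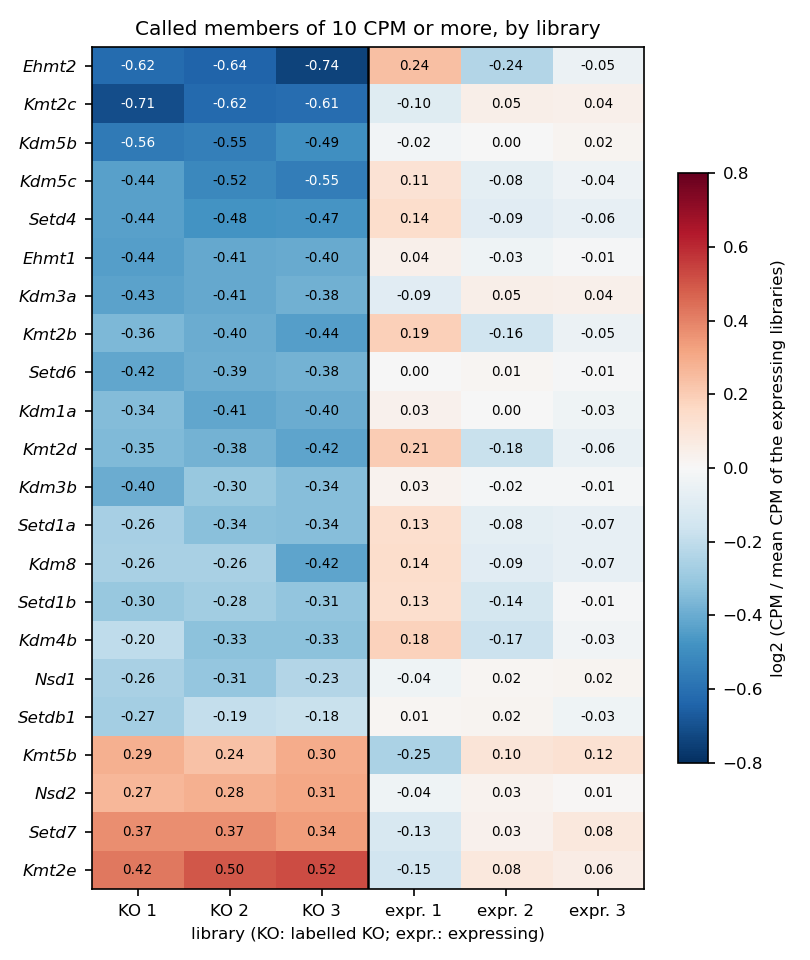
Log2 ratio of each library's CPM to the mean of the expressing libraries (colour and printed value) for the 22 called genes other than Kdm4d. The columns labelled KO are blue for the 18 genes that fell and red for the 4 that rose, and expressing replicate 1 departs from expressing replicates 2 and 3 for Ehmt2, Kmt2b, Kmt2d and Kmt5b.

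Histone lysine methyltransferases and demethylases that carry other prefixes were read as a separate list of 23 genes. The list also holds Riox1, Riox2, Jmjd6 and Hspbap1, whose activity on histone lysines is disputed and which all fell. Its shares are therefore not those of histone lysine enzymes alone. Of the 23 genes 9 fell (39.1%, against 20.8% of all tested genes) and 5 rose (21.7%, against 19.2%), with a median log2 fold change of -0.05. Riox2 (-0.61), Ezh1 (-0.60) and the H3K79 methyltransferase Dot1l (-0.33) were among those that fell. Prdm9, the H3K4 and H3K36 methyltransferase that places meiotic recombination, rose to 4.60 ± 0.239 CPM in the libraries labelled KO, against 2.95 ± 0.675 CPM in the expressing libraries (SD, n = 3 each; 0.65), and Smyd1 (0.55) and Phf8 (0.31), the gene of a relative of Kdm7a, rose too. Jmjd1c, the paralogue of Kdm3a and Kdm3b, did not pass (-0.02), nor did Ash1l (0.16). Of 24 tested genes that make or use the cofactors S-adenosylmethionine and 2-oxoglutarate, 9 fell (37.5%, against 20.8% of all tested genes) and 1 rose (4.17%, against 19.2%). In either direction 41.7% were called, against 40.0% of all tested genes. Psat1, which yields 2-oxoglutarate in serine synthesis, was at 202 ± 1.72 CPM in the libraries labelled KO and 478 ± 46.2 CPM in the expressing libraries (-1.24). Tdh, the threonine dehydrogenase on which mouse ES cells rely for S-adenosylmethionine, was at 138 ± 4.58 CPM in the libraries labelled KO and 269.7 ± 14.7 CPM in the expressing libraries (-0.96). Mtap rose (0.24), and Mat2a, which makes S-adenosylmethionine itself, did not pass (0.09). After removal of the GC trend 15 genes of the cofactor list fell, and the rises numbered 3 with library totals, 2 without expressing replicate 1 and 0 without KO replicate 3. Of the enzymes with other prefixes 6 fell without KO replicate 2 or expressing replicate 3, and 5 without KO replicate 3, while 3 rose without expressing replicate 2 and 7 without expressing replicate 1.

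Summed over the 43 genes, the family took 6021, 5985 and 6104 CPM in the libraries labelled KO and 6933, 6964 and 7030 CPM in the expressing libraries, a decrease in which the groups did not overlap. The sum fell by 13.5%. With CPM scaled by library totals in place of TMM it was 6186, 6224 and 6257 in the libraries labelled KO and 6930.1, 6682 and 6660.5 in the expressing libraries, so that it fell by 7.92%. Kdm5b (a difference of -233 CPM), Nsd1 (-114 CPM), Kdm1a (-94.4 CPM) and Kdm5c (-73.1 CPM) made up 54.7% of the net difference with TMM. The net difference includes the genes that rose, so their share of the falls alone is smaller. CPM are not per length, so long genes such as Nsd1 (17483 bases of merged exons) weigh more in this sum. On the scale per length, the methyltransferases summed to 0.919, 0.937 and 0.940 times the demethylases in the libraries labelled KO and to 0.884, 0.855 and 0.855 times in the expressing libraries. Without Kdm5b alone the ratios ran from 1.03 to 1.06 in the libraries labelled KO and from 0.981 to 1.01 in the expressing libraries. Without Kdm1a alone they ran from 1.16 to 1.18 in the libraries labelled KO and from 1.09 to 1.14 in the expressing libraries. Without both they were 1.34, 1.37 and 1.37 in the libraries labelled KO and 1.37, 1.31 and 1.30 in the expressing libraries. Only then did the groups overlap, through expressing replicate 1 alone. Both genes are among the largest falls named above, so a smaller difference without them follows from the choice.

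The genes of the family are long, with a median of 8225 bases of merged exons against 4408 for all tested protein-coding genes, and their GC content ran from 39.6% to 60.8%. Across the 43 genes the correlation of log2 fold change and GC content was -0.38 with all libraries and -0.24 without expressing replicate 1, as a description only, since all genes come from the same 6 libraries. Over all 17762 genes with a GC value it was -0.085 with all libraries, and over 18524 genes without expressing replicate 1 it was 0.023. For the 43 genes it was -0.23 with the GC trend removed. Of 9 genes with a GC content of at least 55%, 8 were highest in expressing replicate 1 among the expressing libraries, and of 10 genes under 45%, 9 were lowest there. With the GC trend removed from each library, 27 of the 43 genes fell and 5 rose. Over all 17762 genes tested in this setting 5335 fell and 4098 rose, against 3695 and 3422 of 17778 without the removal. The trend was fitted to each library's deviation from the mean of all 6, so GC-linked differences between the groups are removed too.

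**Figure D5:**
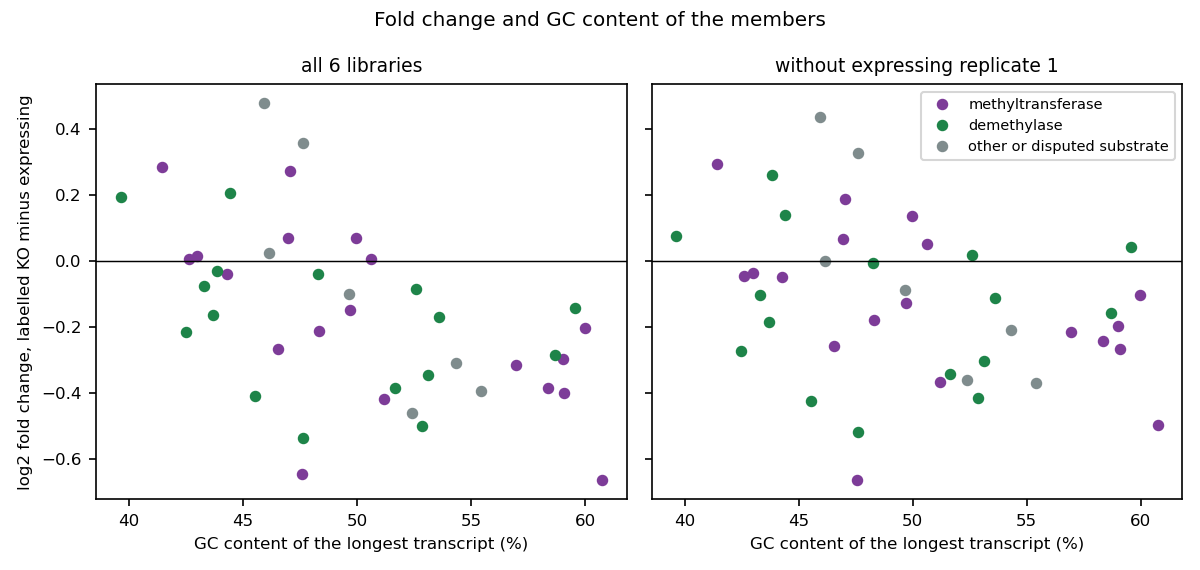
Log2 fold change (vertical axis, libraries labelled KO minus expressing libraries) against GC content of the longest transcript in percent, for the 42 genes other than Kdm4d, with all 6 libraries on the left and without expressing replicate 1 on the right. In both panels most points lie under 0, and the GC-rich end is lower on the left.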

How the data were processed

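Raw counts per gene were used as the authors deposited them, 1 column per library. The submitters' processing notes name the mm10 build, STAR 2.5.3a, HTSeq 0.6.1p1, cutadapt 1.10 and bcl2fastq 2.20.0.422; the counting options are not stated. Names, positions and exon lengths are from GENCODE M21, and 55141 of 55401 identifiers matched. Genes passing edgeR's filterByExpr (minimum count 10, minimum total 15) were tested, 17778 in all, with TMM scaling and the quasi-likelihood test of edgeR 4.0.16 (R 4.3.3) and Benjamini-Hochberg adjustment over all tested genes at 0.05. The code was tested on simulated data. Alternatives were library totals, DESeq2 1.42.0 and its size factors, other filters, a GC trend (spline with 5 degrees of freedom), a replicate block and leaving out each library. At these depths 3 counts equal 0.0581 to 0.0961 CPM, counting error only. Values of every library are given for called members, their paralogues and the members of highest RPKM. Of each context list, the 2 called genes with the largest rise, the 2 with the largest fall and those in one complex with a called member are named; Uhrf1, Cbx1, Cbx5, Dot1l, Phf8, Jmjd1c, Ash1l, Ezh2, Mat2a and Pou5f1 were added after their values were seen. Some genes that this rule names are not reported here. The members, their grouping by target and the lists were chosen with earlier results of these data known. The replicate numbers do not pair the libraries: deviations of same-numbered libraries correlated at 0.0236, -0.0342 and 0.0419.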

Additional observations from a re-analysis of the deposited data

How the results depend on the processing

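Of the 22 calls in the family that could be tested in all 14 alternatives, 16 held in each, 13 of them lower and 3 higher, while Setd1a, Setd1b, Setdb1, Kdm4b, Kmt5b and Kdm8 were lost in at least 1, and 11 genes without a call gained one in at least 1. No called gene turned to the other direction in any of them. The methyltransferases that rose numbered 1 to 3 when a library was left out, 1 without any one of the libraries labelled KO. The demethylases that rose numbered 2 with library totals and 0 with a filter of at least 1 CPM in 3 libraries, which removes Kdm4d from the test; its call held in the other 13 alternatives. The demethylases that fell numbered 5 to 10 when a library was left out (10 without expressing replicate 1), 11 with the GC trend removed and 10 with the replicate block and the GC trend together; the cause was not tested. With the replicate block alone 18 genes of the family fell and 5 rose, the same counts as without it; since the numbers do not pair the libraries, this fit is given for completeness. Leaving out a library gave 14 to 23 genes of the family lower and 4 to 6 higher. Over all tested genes it gave 2627 to 4589 lower and 2541 to 4851 higher. The precision is that of 3 libraries a group, and Taf13 gives no check of the labels.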
